A study of Caenorhabditis elegans with 4 samples.

Results

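The major sperm proteins are the small cytoskeletal proteins of nematode sperm, and their genes were measured here in L4 larvae of wild-type Caenorhabditis elegans, the stage before the adult. The genes were selected by symbol, as every gene with a symbol of msp, hyphen and number among the probes that name exactly 1 gene. This gave 30 genes, on 33 probes, of 14943 genes named by the array. On each of 4 arrays, 1 of 4 preparations of wild-type L4 RNA was hybridised together with wild-type mixed reference RNA. The labels name no mutation, transgene or treatment, and what the reference was mixed from is not stated. The 4 arrays form 1 group, and the labels do not say whether the preparations were grown separately, so p-values measure only the spread between these samples, which may be technical.

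Nematode sperm crawl without actin, by assembling major sperm protein (MSP) into filaments in a pseudopod. The protein is made in developing spermatocytes, is packed into fibrous bodies attached to membranous organelles, and is released as the spermatid matures. Sperm also shed it as a signal that triggers oocyte maturation and contraction of the gonadal sheath. In a hermaphrodite the germ line makes sperm first, around the L4 stage, and then turns to oocytes. The genes form a large family whose coding sequences are nearly identical. The probe sequences were not analysed here, so signal from one copy and cross-hybridisation from another cannot be told apart, and the value of each gene is uncertain for that reason.

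Values are log2 ratios of the 2 channels of an array, centred on the median of all probes of that array, so a value of 1 is a doubling relative to the typical probe. The direction of the deposited ratio is not stated. The labels give L4 as the second channel of each array. Positive values were taken as those of genes higher in L4, which is not certain, and "higher" and "lower" carry that limit throughout. The arrays held values for 21084 to 21489 of the 21632 probes, the SD over probes was 0.85 to 1.21, and pairs of arrays correlated at 0.556 to 0.724 over probes. Preparation 4 had the lowest SD over probes.

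Of the 30 major sperm protein genes, 29 were higher in L4 than in the reference and 0 were lower, by limma with an adjusted p under 0.05. Over all 14887 named genes tested, 13.4% were higher and 9.66% were lower by the same rule. The exception was msp-38. At unadjusted p under 0.05 the numbers were again 29 and 0, and the share over all named genes was not counted for that rule. The means of the 29 genes ran from 1.76 to 2.94, or 3.38-fold to 7.67-fold, with standard errors from 0.31 to 0.51 and adjusted p from 0.00193 to 0.0187 in limma. All values of these 29 genes were above 0 on every array that measured them. In bulk RNA, more cells of a type and more RNA per cell cannot be told apart.

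The 4 genes with the highest mean were msp-77, msp-36, msp-56 and msp-64. The ratio of msp-77 (CELE_F32B6.6, chromosome IV) was 4.03, 4.12, 2.29 and 1.31 in preparations 1 to 4, a mean of 2.94 ± 0.46 (SE, n = 4) with an adjusted p of 0.00397 in limma. That of msp-36 (CELE_C04G2.4, chromosome IV) was 3.67, 4.10, 2.36 and 1.43. Both genes had their high values in preparations 1 and 2. The ratio of msp-56 (CELE_K07F5.3, chromosome IV) was 3.78, 4.06, 2.28 and 1.42. On chromosome II, msp-64 (CELE_ZK1248.6) was at 3.80, 3.77, 2.44 and 1.28. These genes ranked 76th, 83rd, 84th and 103rd from the top by mean ratio among the named genes, so many other genes had larger ratios, and their means differed from each other by less than 1 standard error.

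**Figure D1:**
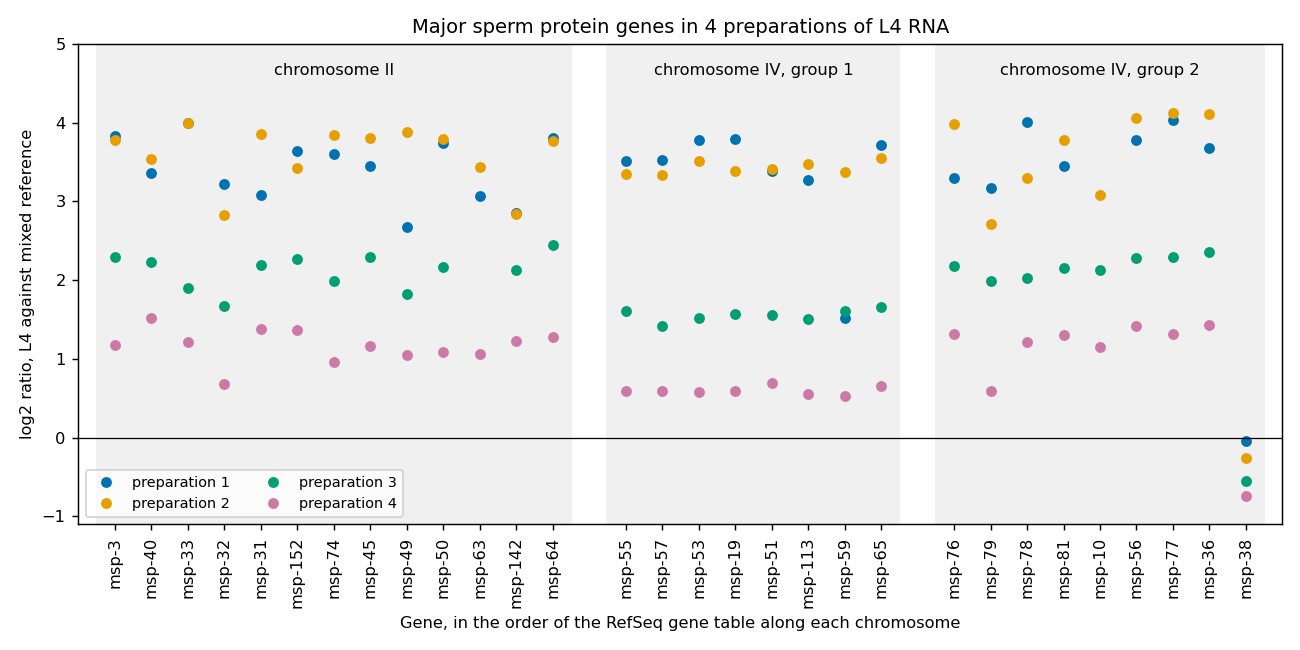
Log2 ratio of L4 against the mixed reference (vertical axis) for each of the 30 major sperm protein genes, in their order along the chromosomes (horizontal axis), with 1 point for each preparation. All genes but msp-38 lie above 0 in every preparation, and the 8 genes of the first group on chromosome IV lie between 0.53 and 0.69 in preparation 4.

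Apart from msp-38, the genes with the lowest means were msp-59, msp-32 and msp-79. The ratio of msp-32 (CELE_R05F9.3, chromosome II) was 3.22, 2.83, 1.67 and 0.68 in preparations 1 to 4, with a mean of 2.10 ± 0.40 (SE, n = 4). That of msp-79 (CELE_T13F2.10, chromosome IV) was 3.17, 2.71, 1.99 and 0.59, with a mean of 2.11 ± 0.40. Their values fell inside the range of the other members in preparations 1, 3 and 4, and in preparation 2 msp-79 was the lowest after msp-38. The genes msp-10 and msp-63 were measured on 3 arrays each. The ratio of msp-10 was 3.08, 2.13 and 1.16 in preparations 2 to 4. For msp-63 it was 3.07, 3.44 and 1.07 in preparations 1, 2 and 4. Both had values like those of the other members on the arrays that measured them.

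The gene msp-38 (CELE_K08F4.8, chromosome IV) did not share the high ratios. Its ratio was -0.05, -0.26, -0.56 and -0.75 in preparations 1 to 4, a mean of -0.40 ± 0.22 (SE, n = 4), which did not pass in limma (adjusted p = 0.218). All of its values were below 0, and the lowest value of any other member was 1.52, 2.71, 1.41 and 0.53 on the same arrays. The nearest other gene therefore stood above it on each array by more than 1 log2 unit. Its gene model is 384 bases long in the RefSeq gene table, assembly WBcel235, the length of 27 other members. The next gene along the chromosome in that table is the pseudogene msp-37, which no probe names alone. The protein-coding gene on the other side is the glutathione transferase gene gst-4. The ratio of gst-4 was 0.98, 0.21, 1.02 and 1.09 in the same order.

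The gene models of msp-74 and msp-32 are shorter, at 234 and 360 bases. The ratio of msp-74 was 3.60, 3.84, 1.99 and 0.96 in preparations 1 to 4, inside the range of the full-length members on each array. The table lists 35 msp genes, 31 protein-coding and 4 pseudogenes. The members are 30 of the 31 protein-coding genes, and msp-58 is the one that no probe names alone. Probes that name several genes were not searched for it.

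Members with 2 probes show how closely 2 measurements of the same gene agreed. The probes of msp-19 read 3.79 and 3.80 in preparation 1, 3.44 and 3.33 in preparation 2, 1.59 and 1.56 in preparation 3, and 0.53 and 0.66 in preparation 4. Those of msp-57 read 3.61 and 3.45, 3.28 and 3.40, 1.27 and 1.56, and 0.55 and 0.65. The probes of both genes were within 0.28 of each other on every array. The probes of msp-59 (CELE_ZK354.11, chromosome IV) read 3.42 and 3.33 in preparation 2, 1.59 and 1.64 in preparation 3, and 0.62 and 0.44 in preparation 4. In preparation 1 they read 3.49 and -0.45, a difference of 3.94. The second probe of msp-59 in preparation 1 is thus the only value of the members other than msp-38 that lay below 0.

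**Figure D2:**
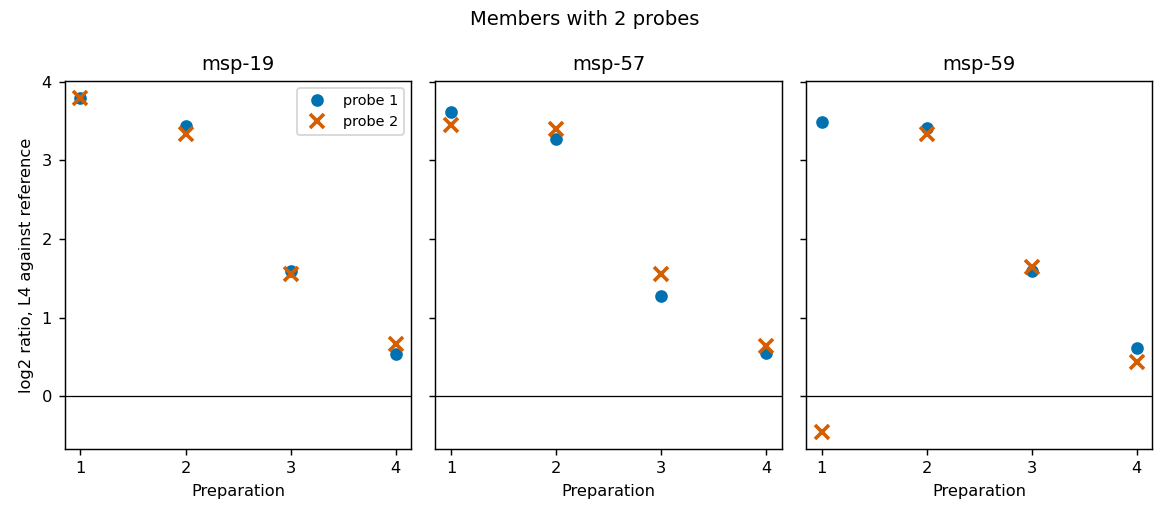
Log2 ratio of L4 against the reference (vertical axis) in each preparation (horizontal axis) for the 3 genes with 2 probes, with circles for probe 1 and crosses for probe 2. The probes lie together except for msp-59 in preparation 1, where they read 3.49 and -0.45.

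Averaged over its probes, msp-59 was at 1.52, 3.37, 1.61 and 0.53 in preparations 1 to 4, a mean of 1.76 ± 0.41 (SE, n = 4), and its adjusted p of 0.0187 in limma was the highest of the genes that passed. It did not pass without preparation 3 (adjusted p = 0.0777) or with each array centred on housekeeping genes (adjusted p = 0.0564). Without preparation 3, msp-53 did not pass either (adjusted p = 0.0501), and 26 of 29 members were higher. No member, and no feature of the array, passed when the variance of each gene was taken from its own 4 values alone, without limma's moderation toward a common value. In that calculation 22 of the 30 members had an unadjusted p under 0.05, and all 22 were higher. Over all 19897 features, 2689 were higher and 2837 lower by that rule.

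The preparations differed in the size of the ratio. The median over the major sperm protein genes was 3.52 in preparation 1 (29 genes), 3.53 in preparation 2 (30 genes), 2.03 in preparation 3 (29 genes) and 1.12 in preparation 4 (30 genes). As folds these medians were 11.4, 11.5, 4.08 and 2.17. On the scale of percentiles among all named genes of the same array, the median member stood at 99.3, 98.8, 94.4 and 90.9. The members without msp-38 ranged over percentiles from 92.8 to 99.6 in preparation 1, 96.4 to 99.6 in preparation 2, 87.8 to 96.8 in preparation 3 and 77.3 to 95.3 in preparation 4. With 1 array for each preparation there is no test between preparations. The titles of the arrays of preparations 1 and 4 share the letters of a code whose meaning is not given, and the medians of these arrays were 3.52 and 1.12. The titles also end in what reads as a calendar day, of which nothing says what took place then. Sorted by it, the arrays run from preparation 4, the earliest, through 3 and 2 to preparation 1, and the medians were 1.12, 2.03, 3.53 and 3.52 in that order. Each of these days holds 1 array, so day and preparation cannot be told apart.

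**Figure D3:**
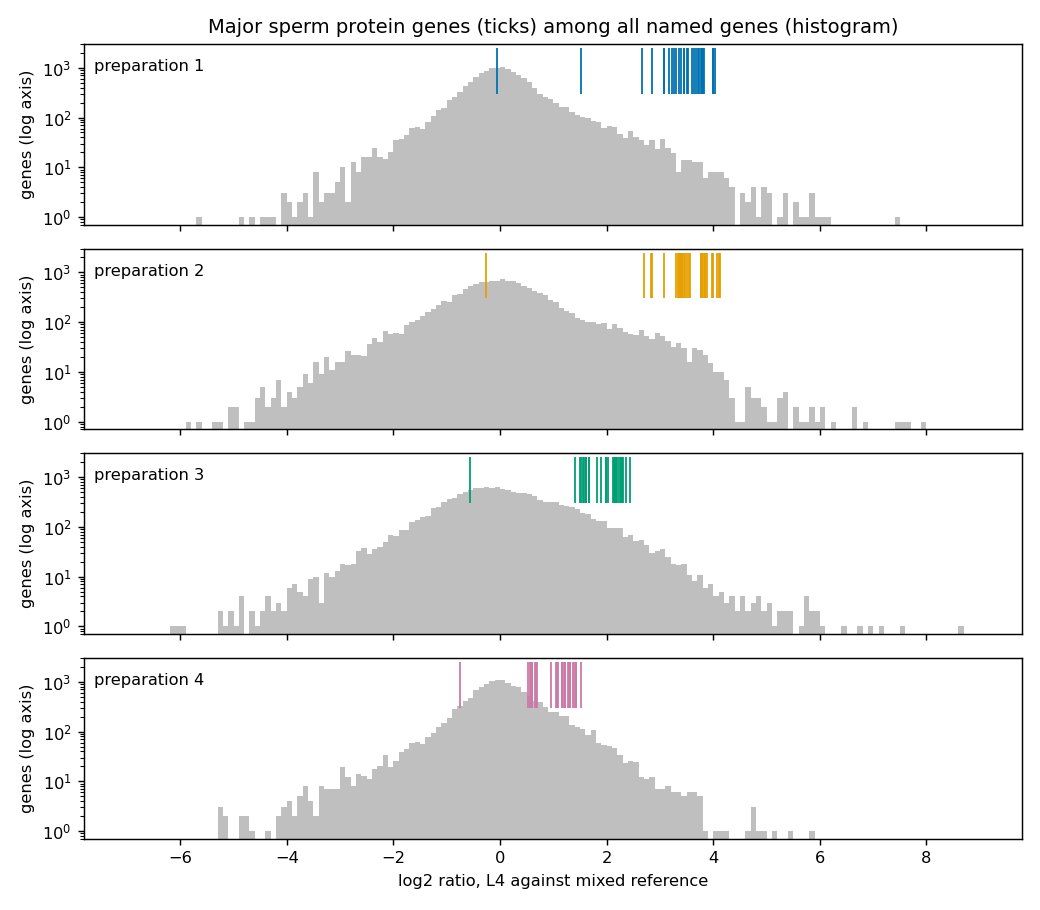
Distribution of the log2 ratio over all named genes (grey histogram, number of genes on a log axis) with the major sperm protein genes as coloured ticks, 1 panel for each preparation. The ticks lie near the upper end in preparations 1 and 2 and closer to the bulk of the genes in preparation 4, where the median member is at 1.12.

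The order of the preparations was nearly the same for every member. Of the 28 genes with 4 values, 27 had both preparation 1 and preparation 2 above preparation 3, and preparation 3 above preparation 4. The exception was msp-59, whose average in preparation 1 holds the probe that read -0.45. The order also held for msp-38, although all of its values were below 0. Preparations 1 and 2 had no fixed order, with 14 of 29 genes higher in preparation 1.

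The genes nevertheless varied between preparations by different amounts. The largest SDs were those of msp-53, msp-19 and msp-65, at 1.55, 1.51 and 1.49 over 4 arrays. The ratio of msp-53 was 3.78, 3.51, 1.52 and 0.57 in preparations 1 to 4, that of msp-19 was 3.80, 3.39, 1.57 and 0.60, and that of msp-65 was 3.72, 3.56, 1.66 and 0.65. These 3 genes lie in the same stretch of chromosome IV. Apart from msp-38, with an SD of 0.31, the smallest SDs were those of msp-142 and msp-40 on chromosome II, at 0.77 and 0.96. The ratio of msp-142 was 2.85, 2.84, 2.13 and 1.22, and that of msp-40 was 3.36, 3.54, 2.23 and 1.52. Both had higher values than msp-53, msp-19 and msp-65 in preparations 3 and 4. In preparation 1 both had lower values than those 3 genes.

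The members fall into 3 groups along the chromosomes by their order in the RefSeq gene table, with a break wherever more than 500 protein-coding genes lie between neighbours. This grouping uses position alone, but it was made after the values were seen and has no test. Chromosome II holds 13 members from msp-3 to msp-64. The first group of chromosome IV holds 8 members from msp-55 to msp-65, and the second holds 9 members from msp-76 to msp-38. Coordinates are left out, since the build behind the array is not named.

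The first group of chromosome IV differed most from the other members in preparations 3 and 4. Its median was 3.52, 3.40, 1.57 and 0.59 in preparations 1 to 4. The median of chromosome II was 3.45, 3.78, 2.18 and 1.18 in the same order, and that of the second group of chromosome IV without msp-38 was 3.67, 3.88, 2.17 and 1.31. By its median the first group thus read like the others in preparation 1 and below them in preparations 2, 3 and 4.

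In preparation 3 its 8 genes lay between 1.41 and 1.66, and the other 20 measured members without msp-38 lay between 1.67 and 2.44. The ranges did not overlap but nearly met, with msp-65 of the group at 1.660 and msp-32 at 1.671. On that array the 2 probes of msp-57, a gene of the group, lay further apart, at 1.27 and 1.56. In preparation 4 its genes lay between 0.53 and 0.69, and 2 of the other 21 members without msp-38, msp-32 and msp-79, lay at or below its highest value. In preparation 2 the ranges overlapped, at 3.34 to 3.56 against 2.71 to 4.12. The difference of its median from that of the other members without msp-38 was -0.0033, -0.38, -0.61 and -0.62 in preparations 1 to 4, a mean of -0.40 ± 0.29 (SD, n = 4). A difference within an array does not depend on how the array is centred.

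Within the first group of chromosome IV the genes read alike on 3 of the 4 arrays. The SD over its 8 genes was 0.75 in preparation 1, where msp-59 was at 1.52 with its low probe, 0.08 in preparation 2, 0.08 in preparation 3 and 0.05 in preparation 4. Over the 13 genes of chromosome II it was 0.41, 0.38, 0.23 (12 genes) and 0.21 on the same arrays. The 8 genes together spanned 0.53 to 0.69 in preparation 4, and on that array the 2 probes of a single gene differed by 0.13 for msp-19, 0.10 for msp-57 and 0.18 for msp-59.

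The members lie among other genes that were often higher in L4. Of the 58 other protein-coding genes between the first and last members of the first group of chromosome IV, 39 were tested. Of these, 20 were higher and 1 was lower in limma, or 51.3% and 2.6%, beside 13.4% and 9.66% over all named genes. Those with the highest means, named after their values were seen, were the nematode-specific peptide gene nspd-6 at 3.78, 3.51, 2.75 and 1.49 in preparations 1 to 4, and rmd-6 at 3.24, 3.60, 2.56 and 2.04. Between the members of the second group, 38 of 105 tested genes (36.2%) were higher and 13 (12.4%) were lower. On chromosome II, 43 of 209 (20.6%) were higher and 16 (7.7%) were lower.

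Over all tested neighbours, whether or not they passed, the median in the first group of chromosome IV was 0.96, 1.41, 0.93 and 0.30 in preparations 1 to 4. Among the neighbours of the second group it was 0.15, 0.38, 0.17 and 0.39, and on chromosome II it was 0.15, 0.27, 0.01 and 0.09. In preparations 2 and 3 the members of the first group had the lowest median of the 3 groups, and its neighbours had the highest. In preparation 4 its members again had the lowest median, but its neighbours, at 0.30, lay below those of the second group, at 0.39.

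Other sperm genes with an MSP domain had ratios close to those of the major sperm proteins. Of 15 tested genes of the msd and ssp series, which encode small proteins with that domain, 13 were higher and 0 lower. The shares over all named genes were 13.4% higher and 9.66% lower. The ratio of ssp-10 was 3.72, 4.04, 2.39 and 1.32 in preparations 1 to 4, a mean of 2.87 ± 0.43 (SE, n = 4), and that of msd-3 was 3.94, 3.48, 2.11 and 1.44, a mean of 2.74 ± 0.41. The mean of msd-4 was 2.84 ± 0.30, and ssp-16, measured on 3 arrays, had the highest mean of the list at 3.17 ± 0.35 (SE, n = 3). The median over the list was 2.83, 3.34, 2.30 and 1.14 in preparations 1 to 4. The major sperm protein median was above it by 0.68 and 0.18 in preparations 1 and 2 and differed from it by -0.27 and -0.02 in preparations 3 and 4. The members that did not pass, named after their values were seen, were ssp-37, at 1.33, 1.32, -0.19 and -1.07, and ssp-35, at 0.25, 0.05, 0.66 and 0.05.

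Genes for building and activating sperm were higher in about equal number to those that did not pass. Of 27 tested genes of fibrous body, membranous organelle and sperm differentiation, 14 were higher and 0 lower, beside 13.4% and 9.66% over all named genes. The highest mean was that of spe-18, which acts in the assembly of MSP into fibrous bodies, at 2.77, 3.11, 2.66 and 2.11 in preparations 1 to 4, a mean of 2.66 ± 0.23 (SE, n = 4). The sperm protein phosphatase genes gsp-3 and gsp-4 had means of 2.62 ± 0.25 and 2.49 ± 0.30, and spe-46 had a mean of 2.59 ± 0.27. These genes varied less between preparations than any member but msp-38, with SDs of 0.42 for spe-18, 0.50 for gsp-3, 0.74 for gsp-4 and 0.58 for spe-46, while the members other than msp-38 had SDs from 0.77 to 1.55. The list median was 0.69, 1.67, 1.08 and 0.55, below the major sperm protein median on all 4 arrays.

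**Figure D4:**
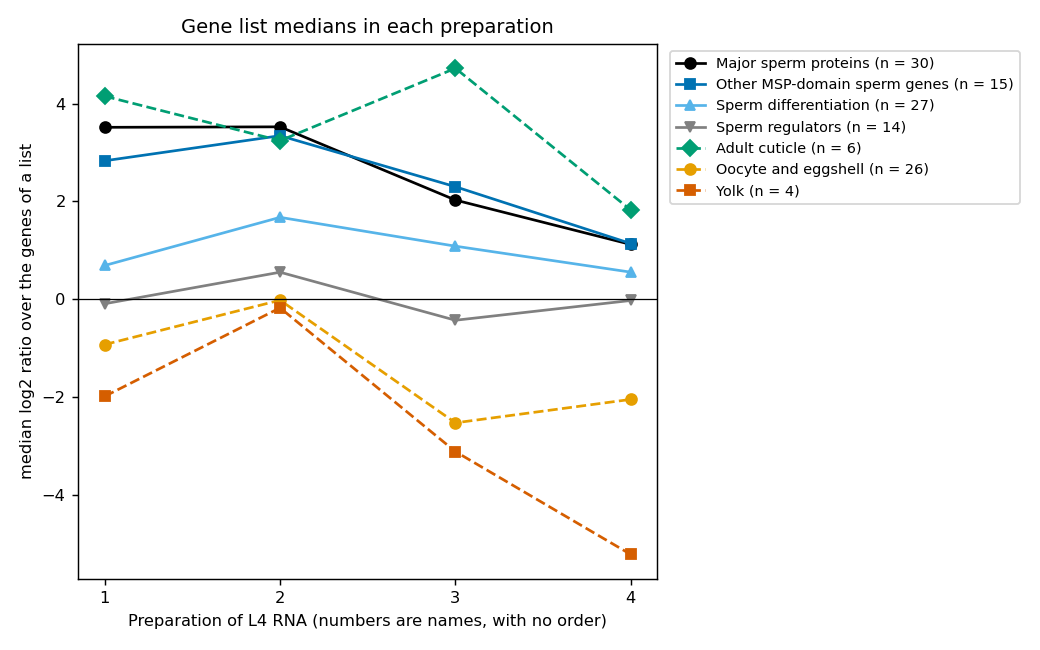
Median log2 ratio (vertical axis) over the genes of each list in each preparation (horizontal axis), with n as the number of genes tested. Lines join the points of a list only to guide the eye. The major sperm proteins and the other MSP-domain sperm genes lie within 0.68 of each other in every preparation, while the yolk median runs from -0.18 to -5.22.

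Regulators of sperm genes and sperm fate had smaller ratios. Of 14 tested, 4 were higher and 1 lower, beside 13.4% and 9.66% over all named genes, and 9 did not pass. The median regulator stood at -0.09 for preparation 1, 0.55 for preparation 2, -0.43 for preparation 3 and -0.03 for preparation 4. All regulators named below passed, while the median of the 14 means was -0.20. The sperm Argonaute genes alg-3 and alg-4 had means of 2.14 ± 0.23 and 1.12 ± 0.21 (SE, n = 4), and spe-44, a transcription regulator of sperm genes that include msp genes, had a mean of 0.98 ± 0.23. The gene fog-3, needed for germ cells to become sperm, was higher at 0.68 ± 0.20. The gene that was lower was elt-1, a GATA factor gene, at -0.80 ± 0.22. The call of elt-1 was lost when any 1 preparation was left out. Without preparation 2 or 4, 2 regulators were higher. From preparation 1 to 4 the ratio of spe-44 was 0.73, 1.26, 0.58 and 1.35, and alg-3 was at 1.68, 2.61, 2.25 and 2.03. Neither gene was lowest in preparation 4, where 28 of the 28 members with 4 values were lowest. Of the other higher regulators, alg-4, at 1.11, 1.26, 1.22 and 0.88, was lowest in preparation 4. The values of fog-3, at 0.59, 0.59, 0.75 and 0.78, were not lowest there.

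Genes through which oocytes and the gonadal sheath respond to MSP were mostly below the threshold. Of 24 tested, 2 were higher and 2 lower, close to the shares over all named genes. The sheath innexin gene inx-8 had a mean of -1.12 ± 0.25 (SE, n = 4) and the ephrin gene efn-4 a mean of -1.12 ± 0.26. The ephrin gene efn-3 was at 1.03 ± 0.29 and itr-1, which encodes the inositol trisphosphate receptor, at 0.92 ± 0.23. The Eph receptor gene vab-1, whose product binds MSP, was named after its values were seen. Its ratio was -0.98, -0.40, -1.85 and -0.41, a mean of -0.91 ± 0.29 that did not pass in limma (adjusted p = 0.0562). Without preparation 3, 0 genes of this list passed in limma in either direction, although 2 higher and 3 lower had an unadjusted p under 0.05. Leaving out preparation 1 left 1 higher and 1 lower, and leaving out preparation 2 left 0 and 1. With preparation 4 left out the numbers were 1 and 2.

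Markers of other tissues and stages also differed between the preparations. The yolk list held 4 tested genes, vit-2, vit-5, vit-6 and the yolk receptor gene rme-2. Of these, 2 were lower and 0 higher, beside 9.66% and 13.4% over all named genes. The yolk list median in preparations 1 to 4 was -1.99, -0.18, -3.12 and -5.22, without vit-6 in preparation 1, where it was not measured. Examples were the vitellogenin genes vit-5 and vit-2, with means of -3.18 ± 0.58 and -2.83 ± 0.62 (SE, n = 4). The oocyte and eggshell list had 10 lower and 0 higher of 26 tested, beside 9.66% and 13.4% over all named genes. Its median was -0.93, -0.02, -2.53 and -2.05. The eggshell genes perm-2 and perm-4 had means of -2.55 ± 0.51 and -2.06 ± 0.42, and the oocyte genes pos-1 and oma-2 had means of -2.42 ± 0.54 and -2.26 ± 0.51.

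Of 6 adult cuticle markers, 5 were higher and 0 lower, beside 13.4% and 9.66% over all named genes. The median of this list was 4.15, 3.24, 4.72 and 1.82. The collagen genes bli-1 and bli-2 had means of 3.37 ± 0.23 and 4.40 ± 0.41 (SE, n = 4), and col-62 and col-63 had means of 3.35 ± 0.69 and 4.16 ± 0.26. In preparation 4 the adult cuticle markers were split, with bli-2, col-63 and bli-1 at 5.45, 4.30 and 3.53 and col-62, col-7 and col-19 at 0.12, -0.16 and -2.65. In preparations 1 to 3 the values of bli-2 were 4.22, 2.78 and 5.13, and those of col-62 were 4.09, 4.36 and 4.82. Preparations 3 and 4, with the lower major sperm protein medians, had the lower yolk and oocyte medians. With preparation 3 left out, limma called 0 yolk genes and 0 oocyte or eggshell genes lower, while 2 and 9 had an unadjusted p under 0.05, and it called 3 adult cuticle markers higher. Leaving out preparation 4 left 2 oocyte or eggshell genes lower, and leaving out preparation 2 gave 20. The part of these tissues in the difference between preparations was not tested.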

How the data were processed

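The deposited table holds 1 value for each of 21632 probes and 4 arrays. How the authors corrected background, normalized or centred the values is not stated. The values were read as log2 ratios made by the authors, because 100% of the negative values of each array became multiples of 0.001 as powers of 2 (tolerance 0.02 of a step), against at most 5.93% with base e or base 10. As deposited, the array medians were -0.0469, 0.0072, -0.1 and -0.0425 for preparations 1 to 4. The direction of the ratio stays unknown too.

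The median of all probes was subtracted from each array. The platform annotation gave 1 gene for 16450 probes, several for 247 and none for 4935. Of those with 1 gene, 16360 matched the RefSeq gene table (assembly WBcel235), which was used for names, chromosomes and gene order, and 0 symbols needed updating. All 33 probes of the members matched. Probes of a gene were averaged, and a gene or unnamed probe needed a value on at least 3 of 4 arrays, which left 19897 features, 14887 of them named genes.

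The mean over arrays was compared with 0 in a two-sided test over all features with limma 3.58.1 in R 4.3.3 (5.15 prior degrees of freedom), with Benjamini-Hochberg adjustment and a threshold of 0.05. The standard error is the moderated one and the SD is that over arrays. The reference counts as 1 sample, and its own spread is left out. With 4 arrays, their number limits the precision. Tables and figures were made with Python 3.11.15, pandas 2.3.3 and matplotlib 3.10.9. On simulated data the test recovered 6 of 50 features shifted by 1 log2 unit, 40 of 50 shifted by 2 and 49 of 50 shifted by 3. It made 6 false calls among 19897 features. The simulation shifted 50 features of each size, far fewer than the 4311 that passed in these data. Its rates may therefore differ from those of the real test. A gene that did not pass may therefore still differ by 1 log2 unit or more. The mean of vit-6, which did not pass, was -2.29 (n = 3).

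Members and lists were chosen with earlier results of these data known. Members named were the 4 highest and 4 lowest means, those that did not pass, lacked an array or had 2 probes, and the 3 highest and 3 lowest SDs. From each other list came up to 4 passing genes with the largest absolute mean. Of the genes most like the members, the 8 nearest were named. Alternatives were other centring, scaling, probe, missing-value and variance rules and leaving out each array.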

Additional observations from a re-analysis of the deposited data

How the results depend on the processing

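The 29 higher and 0 lower major sperm protein genes were 28 and 0 with each array centred on housekeeping genes and 31 and 0 of 33 with probes kept apart. They were 27 and 0 of 28 with a value needed on all 4 arrays. Leaving out 1 preparation gave 26 to 28 higher and 0 lower, with a list median from 2.20 to 3.04. Without moderation of the variance, 0 of 19897 features passed, and so 0 members and 0 genes of the other lists. At unadjusted p under 0.05 that calculation had 2689 features higher and 2837 lower. Among the sperm lists it had 22 major sperm proteins higher, 13 MSP-domain genes higher, 15 differentiation genes higher and 1 lower, and 4 regulators higher and 1 lower. It also had 1 MSP-response gene higher and 2 lower, 1 yolk gene lower, 3 oocyte genes lower and 3 adult cuticle markers higher.

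Over all features, 4311 passed, against 2513 with housekeeping centring and 2570 to 3712 without 1 preparation. With values as deposited or with arrays scaled to 1 spread, 1 differentiation gene was lower. With housekeeping centring, 0 regulators were lower and 1 MSP-response gene was higher. Leaving out 1 preparation gave 2 to 3 regulators higher and 0 lower, 0 to 1 MSP-response genes higher and 0 to 2 lower, 0 to 3 yolk genes lower, 0 to 20 oocyte genes lower and 3 to 6 adult cuticle markers higher. The cause was not tested. Added after the data were seen, leaving out the first group of chromosome IV gave 21 of 22 members higher, and leaving out the low msp-59 probe gave 29 of 30. The ratio of each array already pairs L4 with the reference. No other pairing was possible because the 4 preparations form 1 group.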

Other observations

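The genes whose ratios were nearest to the median of the major sperm proteins over the 4 arrays, by Euclidean distance among 14344 other named genes with 4 values, included 1 gene with a sperm name, msd-3, at a distance of 0.54. The nearest was C48E7.7, at 3.68, 3.27, 1.87 and 1.14 in preparations 1 to 4 and a distance of 0.34. It was followed by ZK546.3 at 0.40, Y57G11A.2 at 0.40, F56D5.2 at 0.43, F21H7.5 at 0.47 and C10G11.8 at 0.52, and R09E10.6 was at 0.56. ZK546.3 is a pseudogene in the RefSeq table.

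The order of preparations seen in 27 of 28 major sperm protein genes, with preparations 1 and 2 above preparation 3 and that above preparation 4, was found in 6.5% of the other named genes with 4 values. Among 394 other genes that were higher with a mean from 2 to 3, 38.3% had it. The same order held for 12 of 14 other MSP-domain sperm genes with 4 values, all but ssp-34 and ssp-35, and for 8 of 25 sperm differentiation genes, with spe-18, gsp-3, spe-46 and gsp-4 among them. It held for 8 of 26 oocyte and eggshell genes and 0 of 14 sperm regulators. The order was read from the members themselves, and their nearly identical sequences keep them from counting as separate observations. The median SD over arrays of those 394 genes was 0.78, against 1.24 for the major sperm proteins.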
